A study of Mus musculus with 18 samples.

Results

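Trp53, the gene of the transcription factor p53, and 9 of its transcriptional targets (Cdkn1a, Mdm2, Ccng1, Bax, Bbc3, Phlda3, Sesn1, Zmat3 and Eda2r) were followed in EA2 and EA1 cells. The 10 genes were taken by symbol from the expression tables of both lines, and all 10 were found among the 24269 genes that the tables share. EA1 and EA2 are mouse lung cancer cell lines that each grew out of a tumor started by an adenovirus carrying Cre, which induced the Eml4-Alk fusion. Each is a single line. By the study's methods EA2 is p53 null and EA1 is p53 wild type, and the sources do not name the allele behind the word null. The 18 libraries form 4 groups, namely EA2 in vivo (n = 5), EA2 in vitro (n = 3), EA1 in vivo (n = 5) and EA1 in vitro (n = 5). For the in vivo groups, cells were placed in the left lung of male C57BL/6 mice that express GFP from a transgene in all tissues. After 4 weeks, the lungs of 3 to 5 mice were pooled for each library and cells without GFP were collected by sorting. The in vitro groups were passaged in RPMI-1640 medium over the same weeks, and all cells carry the fusion.

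p53 is a transcription factor that is kept scarce by the ubiquitin ligase Mdm2 and is stabilised when DNA is damaged or oncogenes are active. It then raises genes that stop the cell cycle, above all Cdkn1a, genes that start apoptosis from mitochondria, such as Bax and Bbc3, and Mdm2 itself, which closes a feedback loop. In lung tumors its loss is common and is known for a more aggressive course. Much of this control acts on p53 protein and not on Trp53 RNA, and protein was not measured here.

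p53 binds DNA through pairs of a short element of 10 bases, the p53 decamer. RefSeq promoters (build GRCm38.p6, 250 bases before to 50 after each start site) matched 9 of the 10 genes, and Zmat3 had no entry. The consensus decamer, whose degenerate form is its own reverse complement so that 1 strand covers both, was found in a promoter of 6 of these 9 genes. It was found in a promoter of 9.55% of all 27025 genes with a RefSeq promoter and in 10 of 34 further p53 target genes. Of these 9 genes, only Cdkn1a had a promoter with 2 exact decamers close together (12 bases between them). Such a pair was a feature of 24 of all 32851 promoters (0.0731%). Directly after the second Cdkn1a decamer lie 10 bases that miss the consensus by 1 letter. They were not counted, because only exact matches were sought. A further Cdkn1a promoter entry, at another start, held no decamer. The 250 bases before the start of the entry with this pair are shown, with the 2 decamers in capitals (chr17:29090729-29090978, plus strand, 5′ to 3′).
Cdkn1a: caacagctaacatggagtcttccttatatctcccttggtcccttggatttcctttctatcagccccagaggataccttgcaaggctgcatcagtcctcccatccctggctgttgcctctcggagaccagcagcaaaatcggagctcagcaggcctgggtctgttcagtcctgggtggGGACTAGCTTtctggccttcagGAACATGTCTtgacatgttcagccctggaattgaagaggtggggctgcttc

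The other 5 genes with a match are shown as 30 bases around it, so that the single decamers can be set beside the Cdkn1a pair, with the decamer in capitals. A match is a description of letters, not of binding, and the promoters of Phlda3, Bbc3 and Eda2r hold no such letters in these windows.
Mdm2 (chr10:117710925-117710954, minus strand): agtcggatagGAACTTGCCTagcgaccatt
Trp53 (chr11:69580274-69580303, plus strand): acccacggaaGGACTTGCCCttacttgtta
Ccng1 (chr11:40755452-40755481, minus strand): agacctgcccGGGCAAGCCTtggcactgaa
Bax (chr7:45467080-45467109, minus strand): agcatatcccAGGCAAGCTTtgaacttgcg
Sesn1 (chr10:41887256-41887285, plus strand): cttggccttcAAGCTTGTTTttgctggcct

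Values are FPKM, fragment numbers divided by transcript length and by each library's mapped total, as deposited, so levels can be set side by side between genes of a table. FPKM carry no counts, so the depth of a single library cannot be read from them. A change is the difference of mean log2(FPKM + 1), in vivo minus in vitro, and the added 1 understates changes of genes at a few FPKM. It was tested with limma (two-sided), with Benjamini-Hochberg adjustment over all genes of the line that passed a filter of 1 FPKM, and called at an adjusted p under 0.05. Levels were not tested between the lines, whose tables were made separately. The summed FPKM set EA2 in vitro libraries 1 and 3 (733184 and 717905) apart from EA2 in vitro library 2 (518260) and from the EA2 in vivo libraries (475434 to 484492). Calls of the genes named for EA2 that change when library 2 alone stands for EA2 in vitro are given beside them. That setting leaves 1 in vitro library, which is assumed to vary like the other groups of the fit, so a call lost there may also come from the smaller group. Markers of host cell types were also summed. The sums were higher in vivo, except that the EA2 ranges overlapped for leukocyte, endothelial and erythroid markers. Erythroid markers were low throughout, at 0.144 to 0.858 FPKM in EA2 in vivo, against 0.0644 to 0.280 FPKM in EA2 in vitro. In EA1 in vivo they summed to 0.212 to 1.23 FPKM, and in EA1 in vitro all were at the table's floor. Which cells the marker RNA came from was not tested. The summed level of 10 fibroblast markers was 381 to 844 FPKM in EA2 in vivo, against 6.75 to 31.9 FPKM in EA2 in vitro, and 183 to 2780 FPKM in EA1 in vivo, against 10.2 to 13.5 FPKM in EA1 in vitro. The 11 leukocyte markers summed to 16.9 to 112 FPKM in EA2 in vivo, against 4.66 to 17.4 FPKM in EA2 in vitro, and to 93.9 to 190.02 FPKM in EA1 in vivo, against 1.00 to 1.71 FPKM in EA1 in vitro. Endothelial markers (10 genes) summed to 1.49 to 20.2 FPKM in EA2 in vivo, against 1.62 to 1.83 FPKM in EA2 in vitro, and to 30.9 to 83.9 FPKM in EA1 in vivo, against 2.69 to 3.53 FPKM in EA1 in vitro. Fewer cells of a type and less RNA per cell cannot be told apart in such libraries, and the part of these cells in the results was not tested. Among 8 epithelial markers, 5 averaged at least 1 FPKM in EA2 in vivo, 4 in EA2 in vitro, 7 in EA1 in vivo and 5 in EA1 in vitro. They summed to 293 to 752 FPKM in EA2 in vivo, against 655 to 1235 FPKM in EA2 in vitro, and to 1635 to 3802 FPKM in EA1 in vivo, against 3673 to 4093 FPKM in EA1 in vitro, with EA1 in vivo library 4 the lowest of its line. The lung lineage factor Nkx2-1 was listed at 0 or at the table's floor in all in vitro libraries of both lines.

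Trp53 RNA was lower in vivo than in vitro in both lines, and the RNA was present in the line described as p53 null. In EA2 in vivo the 5 libraries had 14.9, 17.6, 16.9, 17.4 and 11.6 FPKM, against 45.9, 31.5 and 40.4 FPKM in EA2 in vitro. The EA1 in vivo libraries had 76.6, 82.4, 85.5, 55.5 and 78.5 FPKM, against 129.5, 126.5, 125.4, 134.4 and 128.5 FPKM in EA1 in vitro. The groups did not overlap in either line. The change was -1.27 (SE 0.20, adjusted p = 0.000567) in EA2 and -0.78 (SE 0.10, adjusted p = 4.33e-05) in EA1. EA1 in vivo library 4 had the lowest level of its group and the highest fibroblast marker sum (2780 FPKM), and without it the EA1 change was -0.67. The fall was larger in EA2 by -0.50 (SE 0.21, adjusted p = 0.0438). This difference was not called with 13 of the 18 libraries left out in turn (all but EA2 in vitro 2, EA2 in vivo 2, 3 and 4, and EA1 in vivo 4), where it ran between -0.51 and -0.38 with adjusted p up to 0.143, and it was -0.20 (adjusted p = 0.527) with EA2 in vitro library 2 alone. Trp53 lies on chromosome 11 (69580359 to 69591873, plus strand, GRCm38). An FPKM per gene cannot tell which exons the reads came from, and the annotation lists a processed pseudogene copy, Trp53-ps, that could share reads with it.

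Mdm2 (chromosome 10, 117688875 to 117710758, minus strand), the ubiquitin ligase that marks p53 for degradation and is itself a p53 target, was lower in vivo by nearly the same amount in both lines. It had 15.9, 13.9, 16.7, 16.3 and 14.7 FPKM in EA2 in vivo, against 34.2, 37.2 and 28.8 FPKM in EA2 in vitro. EA1 in vivo libraries had 17.3, 18.9, 16.4, 19.2 and 17.5 FPKM, against 38.3, 40.7, 36.9, 36.7 and 34.7 FPKM in EA1 in vitro. Every in vivo library lay below every in vitro library of its line, and the spread within groups was small (CV 5.96% to 12.8%). The change was -1.06 (SE 0.17, adjusted p = 0.000575) in EA2 and -1.03 (SE 0.06, adjusted p = 1.38e-07) in EA1. The difference between these changes was -0.03 (95% confidence interval -0.32 to 0.27, adjusted p = 0.881), and with median-of-ratios scaling of the libraries it was -0.39 (adjusted p = 0.0191).

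Cdkn1a (chromosome 17, 29090976 to 29100727, plus strand) encodes p21, the inhibitor of cyclin-dependent kinases through which p53 halts the cell cycle. Its RNA was not called in EA2 and was lower in vivo in EA1. It had 10.4, 6.09, 6.38, 15.1 and 11.02 FPKM in EA2 in vivo, against 8.83, 18.5 and 6.94 FPKM in EA2 in vitro. EA2 in vitro library 2 was the highest of the line, and the groups overlapped. The EA2 change was -0.16 (SE 0.34, 95% confidence interval -0.92 to 0.60, adjusted p = 0.704). Levels in EA1 in vivo were 66.9, 57.9, 55.6, 47.3 and 44.0 FPKM, against 72.8, 86.5, 78.2, 66.7 and 74.1 FPKM in EA1 in vitro, so that the highest in vivo library just passed the lowest in vitro library. The EA1 change was -0.48 (SE 0.11, adjusted p = 0.00241), and the EA2 change differed from it by 0.32 (95% confidence interval -0.43 to 1.07, adjusted p = 0.440). Leaving out EA2 libraries in turn moved the EA2 change between -0.43 and 0.22, and against EA2 in vitro library 2 alone it was -0.92 (adjusted p = 0.150). On the other strand the annotation places AC167363.2 over exons of Cdkn1a, and the sources do not say whether the authors' counting used strand.

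**Figure D1:**
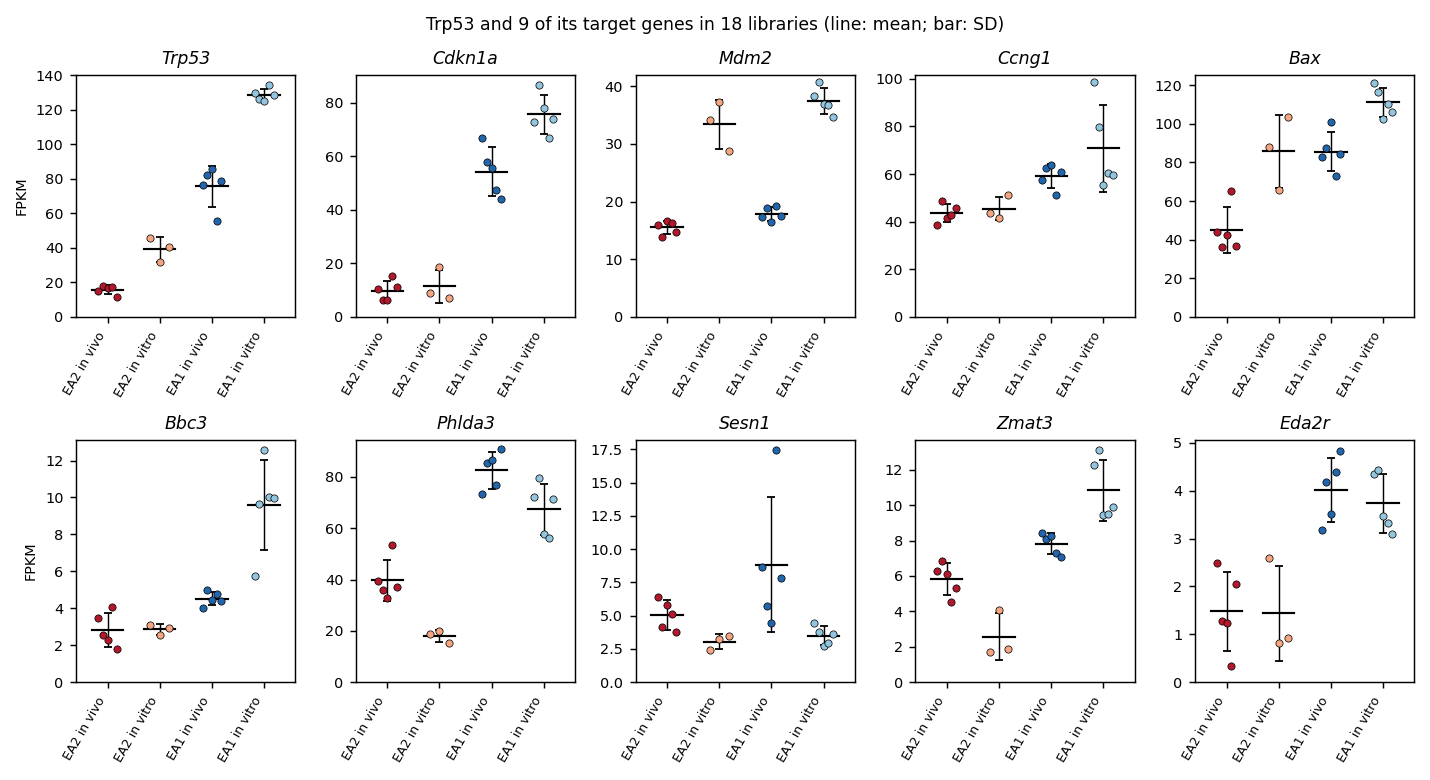
FPKM (linear axes from 0) of Trp53 and 9 p53 target genes in 18 libraries, 1 point a library, with the group mean (line) and SD (bar). Trp53 and Mdm2 lie lower in vivo in both lines without overlap, Phlda3 lies higher in EA2 in vivo, and Zmat3 lies higher in EA2 in vivo but lower in EA1 in vivo than in the in vitro libraries of the same line.

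The apoptosis genes Bax and Bbc3 were both lower in vivo in EA1, and only Bax was called in EA2. Bax, whose protein opens the outer mitochondrial membrane, had 44.1, 36.1, 42.2, 65.4 and 36.9 FPKM in EA2 in vivo, against 87.9, 65.9 and 103 FPKM in EA2 in vitro. EA1 in vivo libraries had 82.9, 87.3, 101, 72.9 and 84.2 FPKM, against 121, 116, 103, 110.1 and 106 FPKM in EA1 in vitro. The groups did not overlap, although EA2 in vivo library 4 came within 1 FPKM of EA2 in vitro library 2. That in vivo library also had the highest fibroblast (844 FPKM) and endothelial (20.2 FPKM) marker sums of its group, whose part in its Bax level was not tested. The change was -0.93 (SE 0.24, adjusted p = 0.00746) in EA2 and -0.38 (SE 0.08, adjusted p = 0.00166) in EA1. The EA2 change was -0.58 (adjusted p = 0.194) against EA2 in vitro library 2 alone and -0.34 (adjusted p = 0.150) once the trend of each library with transcript length was removed. The difference between the lines was -0.55 (SE 0.23, adjusted p = 0.0457). It was not called with 14 of the 18 libraries left out in turn (all but EA2 in vitro 2, EA2 in vivo 4, EA1 in vitro 1 and EA1 in vivo 4), with adjusted p up to 0.155, and it turned to 0.41 (adjusted p = 0.0475) with the length trend removed. Bax lies on chromosome 7 (45461697 to 45466898, minus strand), where Gm45808 overlaps its exons on the same strand.

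Bbc3 (chromosome 7, 16308393 to 16318205, plus strand) encodes Puma, which frees Bax from its inhibitors. It had 3.46, 2.57, 2.30, 4.05 and 1.77 FPKM in EA2 in vivo, against 3.10, 2.53 and 2.92 FPKM in EA2 in vitro, and the in vivo range enclosed the in vitro range. EA1 in vivo libraries had 4.02, 4.98, 4.47, 4.75 and 4.41 FPKM, against 5.73, 9.65, 12.6, 10.0 and 9.98 FPKM in EA1 in vitro, with no overlap. The change was -0.04 (SE 0.23, adjusted p = 0.899) in EA2 and -0.91 (SE 0.16, adjusted p = 0.000331) in EA1. The changes differed by 0.87 (SE 0.26, adjusted p = 0.00823). With median-of-ratios scaling the difference was 0.56 (adjusted p = 0.0747).

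Phlda3, a small protein that competes with Akt for membrane lipids and so lowers survival signalling, was higher in vivo in both lines. It had 39.4, 36.1, 32.9, 53.5 and 37.2 FPKM in EA2 in vivo, against 18.7, 19.9 and 15.4 FPKM in EA2 in vitro. Levels in EA1 in vivo were 73.3, 85.3, 86.7, 76.7 and 90.7 FPKM, against 72.1, 79.4, 57.8, 56.2 and 71.4 FPKM in EA1 in vitro. The groups were apart in EA2 and overlapped in EA1. The change was 1.09 (SE 0.20, adjusted p = 0.00119) in EA2 and 0.30 (SE 0.10, adjusted p = 0.0227) in EA1. The EA1 call was lost without EA1 in vitro library 3 (0.25, adjusted p = 0.0559), EA1 in vitro library 4 (0.24, adjusted p = 0.0568) or EA1 in vivo library 5 (0.26, adjusted p = 0.0567), and with the length trend removed the EA1 change was -0.11 (adjusted p = 0.314). The changes differed by 0.80 (SE 0.20, adjusted p = 0.00252), and by 0.43 (adjusted p = 0.0818) with median-of-ratios scaling. Phlda3 lies on chromosome 1 (135766119 to 135769136, plus strand).

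Zmat3, an RNA-binding zinc finger protein, was the member whose RNA moved in opposite directions in the lines. It had 6.30, 6.84, 6.09, 4.55 and 5.29 FPKM in EA2 in vivo, against 1.71, 4.08 and 1.87 FPKM in EA2 in vitro. Levels in EA1 in vivo were 8.41, 8.07, 8.26, 7.31 and 7.08 FPKM, against 12.3, 13.1, 9.44, 9.50 and 9.92 FPKM in EA1 in vitro. The groups did not overlap in either line, and EA2 in vitro library 2 stood between the other EA2 in vitro libraries and the EA2 in vivo libraries. The change was 0.99 (SE 0.24, adjusted p = 0.00511) in EA2 and -0.42 (SE 0.10, adjusted p = 0.00292) in EA1, and the changes differed by 1.40 (SE 0.24, adjusted p = 8.67e-05). Against EA2 in vitro library 2 alone the EA2 change was 0.41 (adjusted p = 0.222), while the difference between the lines was still called at 0.83. With the length trend removed neither line's change was called (0.30, adjusted p = 0.174, in EA2 and -0.22, adjusted p = 0.106, in EA1), and the difference was called at 0.58. Zmat3 (chromosome 3, 32334792 to 32366014, minus strand) has the longest annotated transcript of the 10 genes, at 7797 bases, and Bax has the shortest.

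Sesn1, a stress-induced inhibitor of the growth kinase mTORC1, was higher in vivo in both lines with wide spread. It had 6.43, 4.11, 5.79, 5.15 and 3.74 FPKM in EA2 in vivo, against 2.42, 3.27 and 3.44 FPKM in EA2 in vitro. Levels in EA1 in vivo were 8.67, 5.75, 4.47, 17.5 and 7.84 FPKM, against 4.44, 3.76, 2.71, 2.96 and 3.62 FPKM in EA1 in vitro. The groups were apart in both lines, in EA1 by less than 0.1 FPKM, and the highest EA1 value was that of in vivo library 4, the library with the most fibroblast marker RNA. The change was 0.57 (SE 0.21, adjusted p = 0.0370) in EA2 and 1.01 (SE 0.28, adjusted p = 0.00660) in EA1. Without EA1 in vivo library 4 the EA1 change was 0.75, still called. The EA2 call was lost without EA2 in vitro library 1 (0.45, adjusted p = 0.131) or 3 (0.64, adjusted p = 0.0556) and without EA2 in vivo library 1 (0.49, adjusted p = 0.0928), 3 (0.52, adjusted p = 0.0842) or 4 (0.56, adjusted p = 0.0614). It was also lost against EA2 in vitro library 2 alone (0.48, adjusted p = 0.235), with median-of-ratios scaling (0.39, adjusted p = 0.0802) and with quantile normalization (0.22, adjusted p = 0.281). The changes of the lines differed by -0.44 (95% confidence interval -1.21 to 0.33, adjusted p = 0.30). Sesn1 lies on chromosome 10 (41809935 to 41908424, plus strand).

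Ccng1 and Eda2r were called in neither line. Ccng1 (chromosome 11, 40748552 to 40755311, minus strand), which encodes the p53-induced cyclin G1, had 38.7 to 48.8 FPKM (median 42.9) in EA2 in vivo, against 43.6, 41.7 and 51.1 FPKM in EA2 in vitro. Ccng1 had 51.2 to 63.6 FPKM (median 60.9) in EA1 in vivo, against 98.8, 79.7, 55.4, 60.5 and 59.8 FPKM in EA1 in vitro, where libraries 1 and 2 were above the rest. Its change was -0.06 (95% confidence interval -0.44 to 0.32, adjusted p = 0.788) in EA2 and -0.23 (95% confidence interval -0.55 to 0.10, adjusted p = 0.189) in EA1. Eda2r (chromosome X, 97333840 to 97377216, minus strand), the receptor of ectodysplasin A2, was the lowest of the 10 genes in 3 of the 4 groups. It had 2.48, 1.28, 1.24, 0.335 and 2.05 FPKM in EA2 in vivo, against 2.59, 0.810 and 0.914 FPKM in EA2 in vitro, with CVs of 56.1% and 69.4%. Levels in EA1 in vivo were 3.19 to 4.84 FPKM (median 4.19), against 3.10 to 4.43 FPKM (median 3.47) in EA1 in vitro. Its change was 0.02 (95% confidence interval -0.73 to 0.78, adjusted p = 0.959) in EA2 and 0.08 (95% confidence interval -0.17 to 0.34, adjusted p = 0.534) in EA1, so that the EA2 values leave a wide range of changes possible.

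**Figure D2:**
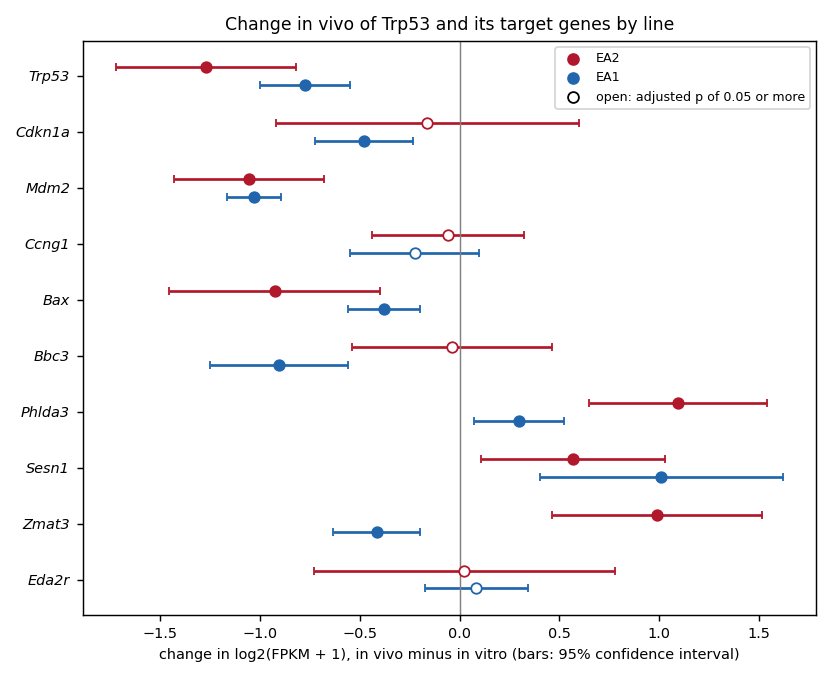
Change in log2(FPKM + 1), in vivo minus in vitro, of the 10 genes in EA2 (red, above) and EA1 (blue, below), with 95% confidence intervals from limma. Filled points have an adjusted p under 0.05. Mdm2 sits at -1.06 in EA2 and -1.03 in EA1, and Zmat3 sits on opposite sides of 0 (0.99 in EA2 and -0.42 in EA1).

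In all, 3 of the 10 genes were called higher and 3 lower in EA2 in vivo. Over all 11074 genes tested in EA2, 57.3% were called, 32.9% higher and 24.4% lower. In EA1 in vivo 2 were called higher and 6 lower, beside 30.9% and 40.7% of 11212 genes (71.5% called in all). The median change of the 10 genes was -0.05 in EA2 and -0.40 in EA1, beside 0.18 and -0.09 over all genes tested. Groups without overlap were found for 3 genes higher and 3 lower in EA2 in vivo, beside 28.1% and 22.8% of all genes, and for 1 gene higher and 5 lower in EA1 in vivo, beside 25.3% and 32.5%. The change in EA2 was above that in EA1 for 3 genes (Zmat3, Bbc3 and Phlda3) and below it for 2 genes (Trp53 and Bax), beside 36.3% and 27.1% of 11930 genes. Each of these shares rests on so few genes that the counts are given as a description. With median-of-ratios scaling the median over all genes was -0.02 in EA2 and 0.01 in EA1, and the split of all EA2 calls was 3163 higher and 3332 lower, against 3643 and 2702 as deposited. The EA1 split was then 4061 higher and 3860 lower, against 3459 and 4560.

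The order of the levels differed between the groups. In EA2 in vivo Bax (mean 44.9 ± 11.9 FPKM, SD), Ccng1 (43.6 ± 3.89 FPKM) and Phlda3 (39.8 ± 7.999 FPKM) came first with overlapping ranges, and Trp53 (15.7 ± 2.52 FPKM) and Mdm2 (15.5 ± 1.16 FPKM) followed, apart from these 3. In EA2 in vitro Bax (85.7 ± 18.8 FPKM) was apart from Ccng1 (45.5 ± 4.97 FPKM), Trp53 (39.3 ± 7.26 FPKM) and Mdm2 (33.4 ± 4.27 FPKM), and Phlda3 was apart below them at 17.97 ± 2.34 FPKM. In EA1 in vivo the ranges of neighbours from Bax (85.7 ± 10.2 FPKM) through Phlda3 (82.5 ± 7.27 FPKM), Trp53 (75.7 ± 11.8 FPKM) and Ccng1 (59.2 ± 5.04 FPKM) to Cdkn1a (54.3 ± 9.05 FPKM) overlapped, and Mdm2 stood below them at 17.9 ± 1.16 FPKM. In EA1 in vitro Trp53 came first (128.9 ± 3.48 FPKM), apart from Bax (111.3 ± 7.51 FPKM), which was in turn apart from Cdkn1a (75.7 ± 7.32 FPKM). Zmat3, Sesn1, Bbc3 and Eda2r were the 4 lowest in every group. Set across the tables without a test, Cdkn1a averaged 9.80 FPKM in EA2 in vivo and 11.4 FPKM in EA2 in vitro, beside 54.3 and 75.7 FPKM in EA1. Mdm2 lay closer together, at 15.5 and 33.4 FPKM in EA2 beside 17.9 and 37.5 FPKM in EA1.

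Regulators of p53 were examined next. Cdkn2a encodes p19Arf, which holds Mdm2 away from p53, and p16Ink4a, which inhibits the kinases Cdk4 and Cdk6. It had 1286, 1415, 1096, 1229.8 and 1096 FPKM in EA2 in vivo, against 924, 867 and 691 FPKM in EA2 in vitro, and was called higher in EA2 in vivo (0.57, SE 0.20, adjusted p = 0.0327, and 0.49, adjusted p = 0.0983, against EA2 in vitro library 2 alone). In EA1 it was listed at the floor of 0.01 FPKM in all in vitro libraries and at no more than 0.269 FPKM in vivo, and it was not tested there. FPKM per gene do not part the Cdkn2a products.

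Mdm4, the partner of Mdm2 that blocks p53 directly, had 5.11, 5.81, 5.73, 5.04 and 3.32 FPKM in EA2 in vivo, against 13.3, 11.5 and 17.9 FPKM in EA2 in vitro. In EA1 in vivo it had 6.34, 5.98, 4.99, 8.02 and 6.39 FPKM, against 10.9, 14.4, 15.5, 15.3 and 13.1 FPKM in EA1 in vitro. As with Mdm2, the groups were apart in both lines. The change was -1.34 (SE 0.22, adjusted p = 0.000559) in EA2 and -1.02 (SE 0.12, adjusted p = 1.94e-05) in EA1. The p53 relative Trp63, a factor of basal epithelial cells, reached 3.88 FPKM in EA2 in vivo library 2 and 9.93 FPKM in EA1 in vivo library 4 and stayed under 0.1 FPKM in all in vitro libraries, and it was not called in EA2 (0.95, adjusted p = 0.069) nor tested in EA1. Trp73, the other relative, was at or under 0.075 FPKM in all 18 libraries.

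Of 19 regulators tested in EA2, 8 were called higher and 5 lower in vivo, and of 17 tested in EA1, 3 were called higher and 11 lower. Over all genes tested, 32.9% were called higher and 24.4% lower in EA2, and 30.9% higher and 40.7% lower in EA1. The regulators' median change was 0.57 in EA2 and -0.36 in EA1, beside 0.18 and -0.09 over all genes. Against EA2 in vitro library 2 alone, the EA2 counts were 5 higher and 1 lower. The acetyltransferases Ep300 and Crebbp, which acetylate p53, were higher in EA2 in vivo (1.49 and 1.33) and lower in EA1 in vivo (-0.36 and -0.47). The checkpoint kinase Chek1 was lower in both lines (-0.97 in EA2 and -1.97 in EA1), although in EA2 not against EA2 in vitro library 2 alone (-0.92, adjusted p = 0.0859). Atr, the kinase above it, was not called in EA2 (0.43, adjusted p = 0.0784) and was lower in EA1 (-0.94). Rpl5, a ribosomal protein that binds Mdm2, was lower in EA2 in vivo (-1.59) and higher in EA1 in vivo (0.26). Its EA2 in vitro values spread widely, at 1858, 676 and 1343 FPKM, and against library 2 alone the EA2 change was -0.77 (adjusted p = 0.131). Rpl11, which acts with it, was not called in EA2 (-0.51, adjusted p = 0.147) and higher in EA1 in vivo (0.21).

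**Figure D3:**
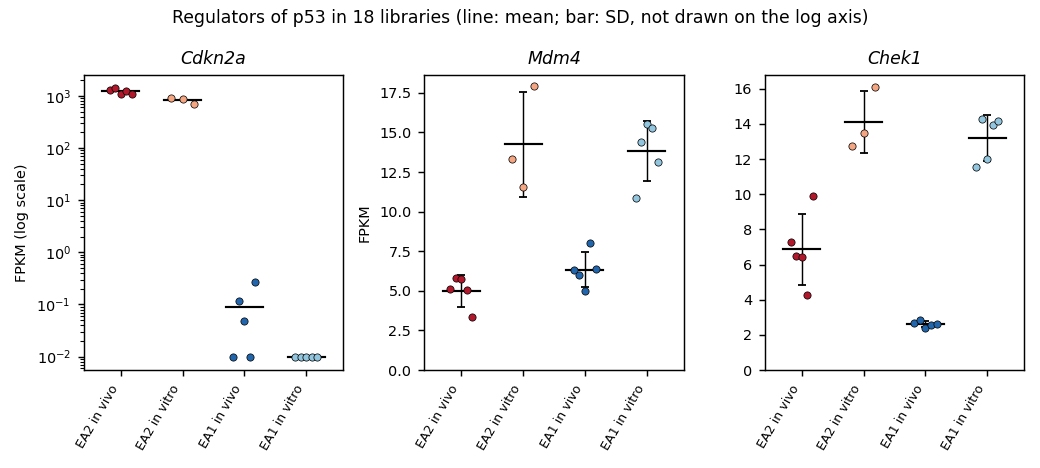
FPKM of 3 p53 regulators in 18 libraries, 1 point a library, with the group mean. Cdkn2a is drawn on a log axis, with the EA1 in vitro libraries at the table's floor of 0.01 FPKM, and Mdm4 and Chek1 on linear axes from 0 with the SD. Mdm4 and Chek1 lie lower in vivo in both lines.

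A further 42 p53 targets were read for comparison, of which 36 were tested in EA2 and 38 in EA1. In EA2 in vivo 10 were called higher and 11 lower (4 and 10 against EA2 in vitro library 2 alone), and in EA1 in vivo 10 were called higher and 20 lower. The shares over all genes tested were 32.9% higher and 24.4% lower in EA2, and 30.9% and 40.7% in EA1. The median change of these targets was 0.01 in EA2 and -0.30 in EA1, beside 0.18 and -0.09 over all genes. Of the 36 tested in both lines, 10 were called lower in both, 6 higher in both, and 1 (Ercc5) in opposite directions. The Ercc5 change was 0.75 in EA2 and -0.32 in EA1. Against EA2 in vitro library 2 alone the EA2 change of Ercc5 was 0.25 and was not called. The largest falls in EA2 were those of the stress cytokine Gdf15 (-3.87, and -2.48 in EA1), the kinase Plk2 (-3.02, and -1.41 in EA1) and the desmosomal protein Perp (-2.97, and -1.03 in EA1). Gdf15 had 7.44, 10.1, 4.69, 10.3 and 8.97 FPKM in EA2 in vivo, against 178, 183 and 68.5 FPKM in EA2 in vitro, and 21.9, 34.1, 15.8, 12.0 and 35.5 FPKM in EA1 in vivo, against 85.1, 128, 176, 144 and 120.2 FPKM in EA1 in vitro. The largest rises in EA2 were those of the peptide transporter Tap1, also a known interferon target (5.53, and 2.12 in EA1), the sulfatase Sulf2 (4.82, and 1.85 in EA1) and the mTORC1 inhibitor Ddit4l (2.25, and 2.24 in EA1). Tap1 had 25.5 to 79.2 FPKM in EA2 in vivo, against under 0.1 FPKM in EA2 in vitro. In EA1 the antiproliferative gene Btg2 rose most, with 91.5, 127, 55.6, 87.9 and 102 FPKM in vivo, against 8.35, 13.0, 15.4, 13.9 and 12.6 FPKM in vitro (2.75, adjusted p = 7.03e-07), and it was not called in EA2 (0.31, adjusted p = 0.632). Sesn2 (-0.65 in EA2 and -1.75 in EA1) and Zfp365 (-1.08 in EA2 and -1.42 in EA1) were among the 3 largest falls in EA1. Against EA2 in vitro library 2 alone the EA2 changes of Perp (-2.39, adjusted p = 0.0654), Ddit4l (2.73, adjusted p = 0.0648) and Zfp365 (-0.73, adjusted p = 0.227) were not called, and that of Sesn2 was -1.15 (adjusted p = 0.0226).

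The 3 sestrins did not move as a group. Sesn2 was lower in both lines, while Sesn3 was higher with Sesn1, at 1.67 (adjusted p = 0.000602) in EA2 and 1.52 (adjusted p = 0.000167) in EA1. Sesn3 had 36.9, 41.3, 41.2, 20.04 and 34.8 FPKM in EA2 in vivo, against 8.27, 14.2 and 8.22 FPKM in EA2 in vitro. In EA1 in vivo it was highest in library 4 (21.2 FPKM, the others 6.60 to 11.2 FPKM), the library with the most fibroblast marker RNA. The EA1 in vitro libraries had 2.53 to 3.56 FPKM. Among the relatives of the other members, Phlda1 was lower in EA2 in vivo (-2.34, adjusted p = 0.000364) and not called in EA1 (-0.58, adjusted p = 0.0527), and Phlda2 was lower in both (-1.27 and -1.37), the opposite of Phlda3. Cdkn1c, which encodes the p21 relative p57, did not pass the filter in EA2 and was higher in EA1 in vivo (1.30, adjusted p = 1.22e-05) at no more than 2.92 FPKM. Zmat5 was not called in EA2 (-0.21, adjusted p = 0.356) and was higher in EA1 in vivo (0.63). Of 10 relatives tested in EA2, 1 was called higher and 4 lower, and of 9 tested in EA1, 4 were called higher and 3 lower, beside 32.9% and 24.4% of all genes in EA2 and 30.9% and 40.7% in EA1.

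Of 17 genes that act with Bax and Bbc3 in apoptosis, 14 were tested in each line, with 4 called higher and 5 lower in EA2 in vivo and 5 higher and 4 lower in EA1 in vivo. Among all genes 32.9% were higher and 24.4% lower in EA2, and 30.9% and 40.7% in EA1. Bmf and Bcl2l11 (Bim), which start apoptosis as Bbc3 does, were higher in both lines. Bmf had 7.52, 6.404, 9.87, 12.8 and 7.49 FPKM in EA2 in vivo, against 0.459, 0.682 and 0.517 FPKM in EA2 in vitro (2.63, adjusted p = 2.11e-05). In EA1 in vivo it had 12.6, 11.5, 13.9, 10.1 and 13.9 FPKM, against 2.96, 2.11, 2.41, 3.88 and 4.65 FPKM in EA1 in vitro (1.70, adjusted p = 3.65e-06). Their direction in EA1 was the opposite of that of Bbc3. Bcl2l11 changed by 1.46 (adjusted p = 0.000201) in EA2 and 1.10 (adjusted p = 4.22e-05) in EA1. Its highest EA1 level was in the fibroblast-rich in vivo library 4 (17.8 FPKM, the other in vivo libraries 9.54 to 13.3 FPKM), against 4.70 to 5.31 FPKM in EA1 in vitro. The survival gene Bcl2l1 (-1.02 and -0.54) and cytochrome c (Cycs, -1.29 and -0.56) were lower in EA2 and in EA1, and the caspase Casp9 was higher (0.97 and 0.30). Bad was lower in EA2 in vivo (-0.92) and higher in EA1 in vivo (0.54). Against EA2 in vitro library 2 alone the EA2 changes of Casp9 (0.41, adjusted p = 0.204) and Bad (-0.03, adjusted p = 0.943) were not called. Bad had 22.4 to 34.8 FPKM in EA2 in vivo, against 87.0, 29.4 and 67.0 FPKM in EA2 in vitro, where library 2 lay within the in vivo range. Bok and Bcl2 were not called in EA2 (0.58, adjusted p = 0.118, and 0.17, adjusted p = 0.393), while in EA1 in vivo Bok was higher (0.68) and Bcl2 lower (-0.60).

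Of 14 cell cycle genes that p53 lowers through p21 and the DREAM repressor complex, 6 were called lower and 0 higher in EA2 in vivo, beside 24.4% of all genes called lower, with a median change of -0.57. With median-of-ratios scaling 10 of 14 were lower in EA2. In EA1 in vivo all 14 were called lower, beside 40.7% of all genes, with a median of -1.63. Cdk1, the kinase of mitotic entry, had 27.4, 21.5, 26.6, 19.8 and 26.5 FPKM in EA2 in vivo, against 107, 71.9 and 232 FPKM in EA2 in vitro (-2.28, adjusted p = 0.000296). In EA1 in vivo it had 25.2, 24.7, 22.03, 18.9 and 20.4 FPKM, against 93.3, 81.3, 63.3, 77.4 and 73.6 FPKM in EA1 in vitro (-1.76, adjusted p = 1.7e-07). Cyclin B1 (Ccnb1, -1.49 in EA2 and -1.72 in EA1) and survivin (Birc5, -1.32 in EA2 and -1.26 in EA1) also fell in both lines. In EA1 these genes and Cdkn1a were lower in vivo together. Topoisomerase Top2a and the proliferation antigen Mki67 were not called in EA2 (-0.14, adjusted p = 0.763, and 0.75, adjusted p = 0.0827) and were lower in EA1 in vivo (-2.06 and -1.88). Against EA2 in vitro library 2 alone the EA2 change of Top2a was -1.02 (adjusted p = 0.0846). The change in EA2 was above that in EA1 for 7 of the 14 genes and below it for 1 gene, and for 3 and 0 of them with EA2 in vitro library 2 alone.

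**Figure D4:**
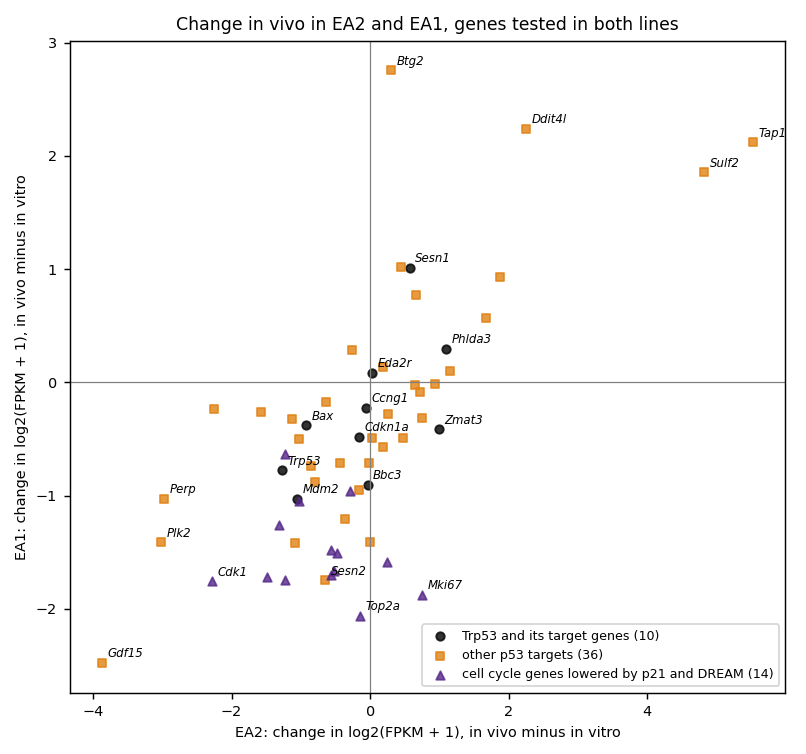
Change in log2(FPKM + 1), in vivo minus in vitro, in EA2 (x axis) and EA1 (y axis), 1 point a gene, for Trp53 and its 9 targets (black), 36 other p53 targets (orange) and 14 cell cycle genes lowered through p21 and DREAM (purple). All 14 cell cycle genes lie below 0 in EA1, and Mki67 lies at 0.75 in EA2 and -1.88 in EA1.

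The genes whose pattern was most like that of Trp53 were found by Pearson correlation of log2(FPKM + 1) over the 18 libraries, after the mean of each line was taken away, among 10333 genes. They were Anxa3 (r = 0.973), Snx5 (r = 0.967), Zfp57 (r = 0.965), Cmtr2 (r = 0.963) and Gtf3a (r = 0.963). The closest to Cdkn1a were Vps37b (r = 0.839), Slc11a2 (r = 0.836), Ccdc124 (r = 0.822), Ndufs1 (r = 0.799) and Fbl (r = 0.799). No gene of the p53 lists was among them. The in vivo and in vitro groups enter as points of these correlations, so any gene that shifts with Trp53 between the conditions scores high.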

How the data were processed

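RNA of EA2 and EA1 cells was measured by RNA-seq of polyA-selected, stranded libraries. The FPKM deposited by the authors were estimated with Cufflinks (version 2.0.2 in the submitters' processing notes) on reads aligned to mm10 with STAR, 1 table a line. The sources used here do not give the annotation, and FPKM carry no read depth. The EA1 table has a floor of 0.01 FPKM and the EA2 table holds zeros, so levels were not tested between tables. In EA2, 27 entries whose names had become dates were left out, and in EA1 6 entries with a status word were left out. No column of values was without a library. Nothing in the labels says whether libraries of a group came from separate cultures, and p-values measure the spread between these libraries, which may be technical.

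Changes were fitted with limma 3.58.1 (R 4.3.3, trend) on log2(FPKM + 1), for genes at 1 FPKM or more in at least 3 EA2 or 5 EA1 libraries, per line and, for the difference of the changes, over all 18 libraries. Benjamini-Hochberg adjustment ran over all genes tested, at 0.05. The code was tested on simulated data. The alternatives were a pseudocount of 0.1, quantile normalization, median-of-ratios scaling, a filter of 5 FPKM or none, a replicate block, subtraction of the trend with transcript length in each library, each library left out in turn, and EA2 in vitro library 2 alone. The members and gene lists were chosen with earlier results of these data known. All 10 members are named, with up to 3 called genes of largest change each way per list and line, and Mdm4, Cdkn2a, Trp63 and Trp73. A gene that this rule covers is not reported here. Ercc5 was named after its values were seen. Gene positions are from GENCODE for GRCm38 and promoters from RefSeq for GRCm38.p6.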

Additional observations from a re-analysis of the deposited data

Results flagged for a closer look

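A lone library stood far from the rest of its group in 13 of 142 pairs of a gene and a group of 5 libraries. The cutoff flags about 1 in 20 groups of independent normal values. It was applied to untransformed FPKM, some of them near 0, and the pairs share libraries. That rate therefore need not hold here, and the count is given as a description. Among the 30 pairs of the 10 members 1 was flagged, Bax in EA2 in vivo library 4 (65.4 FPKM, above the other 4). EA2 in vivo library 4 was also the high library for Perp (4.75 FPKM), Zfp365 (1.46 FPKM) and Trp73 (0.00693 FPKM, with the others at 0), library 2 for Trp63 (3.88 FPKM) and library 5 for Btg2 (22.1 FPKM) and Rpl5 (630.2 FPKM). Library 4 of EA2 in vivo also had the highest endothelial (20.2 FPKM, the others 1.49 to 6.95 FPKM) and fibroblast (844 FPKM) marker sums of its group, and their part in these values was not tested. EA1 in vivo library 4, with the highest fibroblast marker sum, was the high library for Tap1 (13.3 FPKM), Zfp365 (2.75 FPKM), Bcl2 (6.71 FPKM) and Trp63 (9.93 FPKM). EA1 in vitro library 1 was low for Sesn2 (11.5 FPKM) and high for Bad (31.2 FPKM).

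The change in vivo differed between EA2 and EA1, by the limma test of the difference, for 5 of the 10 members, namely Trp53 (-0.50, adjusted p = 0.0438), Bax (-0.55, adjusted p = 0.0457), Bbc3 (0.87, adjusted p = 0.00823), Phlda3 (0.80, adjusted p = 0.00252) and Zmat3 (1.40, adjusted p = 8.67e-05), beside 63.3% of all genes tested. It also differed for 24 of the other named genes. The EA2 change was the higher for Tap1 (3.41), Sulf2 (2.97), Mki67 (2.63), Top2a (1.92), Ep300 (1.86), Crebbp (1.81), Atr (1.37), Sesn2 (1.10), Chek1 (0.99), Bmf (0.93), Bcl2 (0.77), Casp9 (0.67) and Cdkn2a (0.46). It was the lower for Btg2 (-2.45), Perp (-1.95), Rpl5 (-1.85), Phlda1 (-1.76), Plk2 (-1.61), Bad (-1.47), Gdf15 (-1.39), Cdkn1c (-1.02), Zmat5 (-0.84), Cycs (-0.73) and Rpl11 (-0.71). Cdkn2a was near 0 in all EA1 libraries, so its difference rests on EA2 alone. With EA2 in vitro library 2 alone the differences of Trp53, Bax, Perp, Sesn2, Cdkn2a, Rpl11, Bcl2, Bmf, Casp9 and Cycs were not called.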

How the results depend on the processing

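In EA2, 3 of the 10 members were called higher. This count was 1 with the length trend removed and 1 against EA2 in vitro library 2 alone, and 2 to 3 with a library left out, while the count called lower was 3 with each library left out and 2, without Bax, with the length trend removed and against library 2 alone. In EA1, 2 were called higher, and 1 with no filter, with a filter of 5 FPKM and with the length trend removed. With a library left out the EA1 counts were 1 to 2 higher and 6 lower. Of the differences between the lines, 3 were called higher, 1 with median-of-ratios scaling, and 3 with each library left out. The 2 called lower became 0 with no filter and with EA2 in vitro library 2 alone, 1 with quantile normalization, with the replicate block and with the length trend removed, 3 with median-of-ratios scaling, and 0 to 2 with a library left out. With the length trend removed the Phlda3 change in EA1 was -0.11 (adjusted p = 0.314) and the Bax difference was 0.41 (adjusted p = 0.0475). The cause of these moves was not tested, except that a filter of 5 FPKM leaves Sesn1 and Eda2r out in EA1. Of the single-gene values under alternatives, 143 of 158 in EA2, 162 of 168 in EA1 and 222 of 259 for the difference kept their call, and their direction where called. A value called in neither setting was counted as kept even where its direction turned.

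Over all genes, EA2 calls numbered 3643 higher and 2702 lower, and 1603 and 1667 against library 2 alone. EA1 calls higher numbered 3459, and 5289 with no filter. Differences called higher numbered 4327, and 2517 with library 2 alone. Replicate numbers are shared between in vivo and in vitro libraries. Deviations from the group mean correlated at -0.13 to 0.01 in EA2 and -0.06 to 0.08 in EA1 between same-numbered libraries. Such correlations cannot tell whether the cultures and the implanted cells were paired. With the replicate block, the Sesn1 change in EA2 (0.67, adjusted p = 0.0809) and the Trp53 difference (-0.42, adjusted p = 0.142) were no longer called, and no other member's call changed. FPKM without counts set no limit of detection, so a gene at 0 or at the floor is only listed so.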
